A study of Homo sapiens with 3 samples.

Results

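The genes described here are 9 genes of homologous recombination, the Fanconi anemia pathway and DNA damage signalling, namely BRCA1, BRCA2, PALB2, FANCA, FANCD2, ATM, ATR, CHEK1 and CHEK2. They were chosen by name, and each was found under that name among the 23284 genes listed in every library. The cells were 293T, a human embryonic kidney line that carries the SV40 large T antigen, and cells in all 3 conditions expressed dCas9-VP64, in which a nuclease-dead Cas9 carries the VP64 activation domain to the site its guide matches. The control cells received the parental guide vector (mock), and the other cells received sgL1ASP #1 or sgL1ASP #3, guides aimed at the antisense promoter of the LINE-1 retrotransposon (L1 ASP). Each condition is represented by 1 library. Differences could therefore not be checked against replicates, and p-values are left out. How long after transfection the RNA was taken, and what share of the cells carried both plasmids, are not given in the sources used here.

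The values are FPKM, read counts scaled by transcript length and library size, calculated by the authors. The files give no read totals, and the worth of a single read in the lowest FPKM put them at about 10400000 (mock), 10300000 (sgL1ASP #1) and 8700000 (sgL1ASP #3). The 293T markers NEFL, NEFM, VIM, KRT8, KRT18, LHX1 and GATA3 were at FPKM 1.48 or more in every library. PAX2 lay between 0.522 and 0.658. The leukocyte genes PTPRC and CD3E and the erythroid gene HBB were listed at 0 in all 3 libraries, and the hepatocyte gene ALB lay between 0.284 and 0.467.

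In homologous recombination, a broken chromosome is repaired from its sister copy. BRCA1 promotes processing of the broken ends, PALB2 links BRCA1 to BRCA2, and BRCA2 acts at the strand exchange step. The Fanconi anemia proteins act on crosslinked DNA, where a core complex that includes FANCA attaches ubiquitin to FANCD2 and its partner FANCI. The kinases ATM and ATR sense breaks and stalled replication forks, and they activate the checkpoint kinases CHEK2 and CHEK1. L1 insertion itself goes through a nick and reverse transcription at the target site, and whether these genes differ between cells with and without L1 ASP activation is the question of the comparison.

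The start regions of these genes are shown because several of them face a neighbouring gene across the same short stretch of DNA, whose values are given further on. They were read from GRCh37, the sequence also called hg19, on which the authors mapped their reads. A window from 250 bases before to 50 bases after the start of the main GENCODE transcript was searched on both strands for 4 spellings of the E2F site (TTTCCCGC, TTTGGCGC, TTTCGCGC and TTTGCCGC), the cell cycle element CHR (TTTGAA), the CCAAT box (CCAAT), an ETS site (CCGGAA), the GC box (GGGCGG) and the TATA box (TATAAA). The 9 windows held 22 matches, of which 0 pairs overlapped. Only some of these matches are printed. Each line below runs 5′ to 3′ in the direction of the gene, with the match in capitals, in reverse complement where the match is on the other strand.
FANCD2, E2F, chr3:10068108-10068137, plus strand: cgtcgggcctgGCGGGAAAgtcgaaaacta
FANCA, E2F, chr16:89883209-89883238, minus strand: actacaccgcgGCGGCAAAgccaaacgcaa
ATM, CHR, chr11:108093762-108093791, plus strand: agtcacgcagggTTTGAAccggaagcggga
BRCA2, ETS, chr13:32889546-32889575, plus strand: cccaggcctgacTTCCGGgtggtgcgtgtg
BRCA1, CCAAT box, chr17:41277539-41277568, minus strand: cagactgggtggCCAATccagagccccgag
CHEK2, CCAAT box, chr22:29137861-29137890, minus strand: ctgctgctcctcATTGGtccggcggcaggg
CHEK2, CCAAT box, chr22:29137831-29137860, minus strand: gagggggttttgATTGGctgagggtggagt

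An E2F spelling was found in 2 of the 9 windows, FANCA and FANCD2, and in 4.37% of the 19881 windows of protein-coding genes. The CCAAT box was found in 5 windows (ATM, BRCA1, CHEK2, FANCA and PALB2) and in 36% of all windows, and CHEK2 held 3 copies. The ETS site was found in 5 windows (ATM, ATR, BRCA2, FANCD2 and PALB2) and in 22.8% of all. The GC box was found in 4 windows (ATR, CHEK2, FANCA and FANCD2) and in 61.4% of all, the CHR in ATM alone and in 11.4% of all, and the TATA box in 0 of the 9 windows and in 9.62% of all. CHEK1 had no match to any of these spellings in its window, which has 43.3% G and C, the lowest of the 9. A match to these letters is a description of the sequence and not a measured binding site.

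All 9 genes were expressed in every library, and their FPKM differed little between the conditions. Taken per length of transcript, FANCA had the highest FPKM in every library, and BRCA2 and ATR had the lowest, in an order that differed between libraries. FANCA had FPKM 45.9 in mock, 45.9 with sgL1ASP #1 and 45.8 with sgL1ASP #3, the closest agreement among the 9. FANCD2 had FPKM 32.7 in mock, 31.8 with sgL1ASP #1 and 32.9 with sgL1ASP #3. Its range did not reach that of FANCA above it or that of CHEK1 below it.

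The checkpoint kinases came next. CHEK1, which ATR activates at stalled forks, had FPKM 30.4 in mock, 29.3 with sgL1ASP #1 and 28.6 with sgL1ASP #3. CHEK2, which ATM activates at breaks, had FPKM 30.7 in mock, 28.5 with sgL1ASP #1 and 24.2 with sgL1ASP #3. The 2 genes were at nearly the same level in mock, and the sgL1ASP #3 library was the lowest for both. The ranges of CHEK1 and CHEK2 overlapped, and their order differed between libraries. The range of CHEK2 also overlapped that of BRCA1, which was below both checkpoint kinases in every library. With sgL1ASP #3 the gap was small, at 24.0 for BRCA1 and 24.2 for CHEK2.

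Among the BRCA genes, BRCA1 was well above its partners. BRCA1 had FPKM 23.5 in mock, 25.8 with sgL1ASP #1 and 24.0 with sgL1ASP #3. PALB2 had FPKM 8.55 in mock, 8.16 with sgL1ASP #1 and 8.59 with sgL1ASP #3. BRCA2 had FPKM 5.69 in mock, 5.32 with sgL1ASP #1 and 5.47 with sgL1ASP #3. BRCA1 was highest with sgL1ASP #1, while PALB2 and BRCA2 were lowest in that library.

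The apical kinases ATM and ATR were below the checkpoint kinases CHEK1 and CHEK2 in every library. ATM had FPKM 11.4 in mock, 11.9 with sgL1ASP #1 and 10.9 with sgL1ASP #3. ATR had FPKM 5.25 in mock, 5.60 with sgL1ASP #1 and 5.21 with sgL1ASP #3. For both kinases the sgL1ASP #1 library was the highest and the sgL1ASP #3 library the lowest. The ranges of BRCA2 and ATR overlapped, whereas ATM and PALB2 were each apart from the genes beside them in the order.

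The ratio of the highest to the lowest FPKM of a gene was 1.27 for CHEK2, 1.099 for BRCA1 and 1.002 for FANCA, with the other 6 genes between 1.03 and 1.09. Beyond 1.5-fold, the size of change used in the study's methods, lay 0 of the 9 genes in either direction, with sgL1ASP #1 or with sgL1ASP #3. Among the genes with mean FPKM at least 1 and FPKM above 0 in both libraries, that threshold was passed by 3.23% with sgL1ASP #1 (1.56% higher and 1.67% lower) and by 3.48% with sgL1ASP #3 (1.64% higher and 1.84% lower). Between the guides it was passed by 0 of the 9 genes and by 3.34% of all, 1.67% in each direction. At such shares, 0 of 9 genes is not a result about these genes. Beyond 1.2-fold lay CHEK2 alone, lower with sgL1ASP #3, as were 7.79% of all genes. In bulk RNA, fewer cells with a transcript and less of it per cell cannot be told apart.

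Differences were then taken on the scale of log2(FPKM + 0.1) and set against counting error, computed from the estimated depth and the length of the main transcript. The 9 genes were covered by about 290 reads (PALB2 in sgL1ASP #3) to about 2500 (FANCA in mock). The 95% counting intervals cover sampling of reads only, and they would be wider if shorter transcripts carried the reads. Among the 10964 genes with mean FPKM at least 1 and a matched transcript, the difference exceeded its own counting interval in 16.7% with sgL1ASP #1 and in 15.2% with sgL1ASP #3. Beside these shares, 1 of the 9 genes did so with each guide.

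With sgL1ASP #1, BRCA1 was the only one of the 9 genes beyond its interval. Its difference from mock was 0.14 (95% counting interval 0.040 to 0.23), which is 9.87% more FPKM, and 35.6% of genes with mean FPKM at least 1 had a larger absolute difference. The other 8 genes lay between -0.11 for CHEK2 and 0.09 for ATR. Their intervals all included 0. For the apical kinases the difference was 0.05 for ATM (interval -0.049 to 0.16) and 0.09 for ATR (interval -0.099 to 0.28). With the FPKM sums made equal, BRCA1 was at 0.042, less than the 0.095 that its interval spans on each side. Which genes lie beyond their intervals thus depends on the scaling between libraries.

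With sgL1ASP #3, CHEK2 was the only one of the 9 genes beyond its interval. Its difference from mock was -0.34 (95% counting interval -0.54 to -0.15), a percent difference of -21.2% in FPKM, at about 350 reads against about 530 in mock. It stood at the 5.14 percentile of genes with mean FPKM at least 1, and 9.56% of them had a larger absolute difference. The remaining genes lay between -0.087 for CHEK1 and 0.035 for BRCA1. For FANCA the difference was -0.003 with an interval of -0.087 to 0.080, which covers counting error only. This interval is narrower than that of CHEK2 because FANCA has more reads, and it applies to FANCA only. With the FPKM sums made equal, the difference of FANCA was -0.12.

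CHEK2 has 7 annotated pseudogenes named after it, and CHEK2P2, the single pseudogene in the deposited list, was at 0 in all 3 libraries. BRCA1 and FANCD2 have 1 such pseudogene each, with no value in these libraries. Whether reads were divided between CHEK2 and its copies was not tested. The genes most like CHEK2 in their differences from mock, among 4188 genes with mean FPKM within 2-fold of it, were CCDC34, NUDT2 and SPC25, at distances of 0.038, 0.039 and 0.053 over the pair of log2 differences. CCDC34 had FPKM 26.6 in mock, 24.1 with sgL1ASP #1 and 20.6 with sgL1ASP #3. These genes were picked for their likeness over 3 libraries, which is a description only.

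Between the guides, CHEK2, ATM and BRCA1 were higher with sgL1ASP #1 than with sgL1ASP #3 by more than the counting interval, which 14.5% of those 10964 genes exceeded in either direction. The difference was 0.23 for CHEK2 (interval 0.033 to 0.43) and 0.12 for ATM (interval 0.0085 to 0.23). For BRCA1 it was 0.10, and its interval began at 0.00017. The remaining 6 genes lay between -0.074 for PALB2 and 0.10 for ATR, with intervals that included 0.

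**Figure D1:**
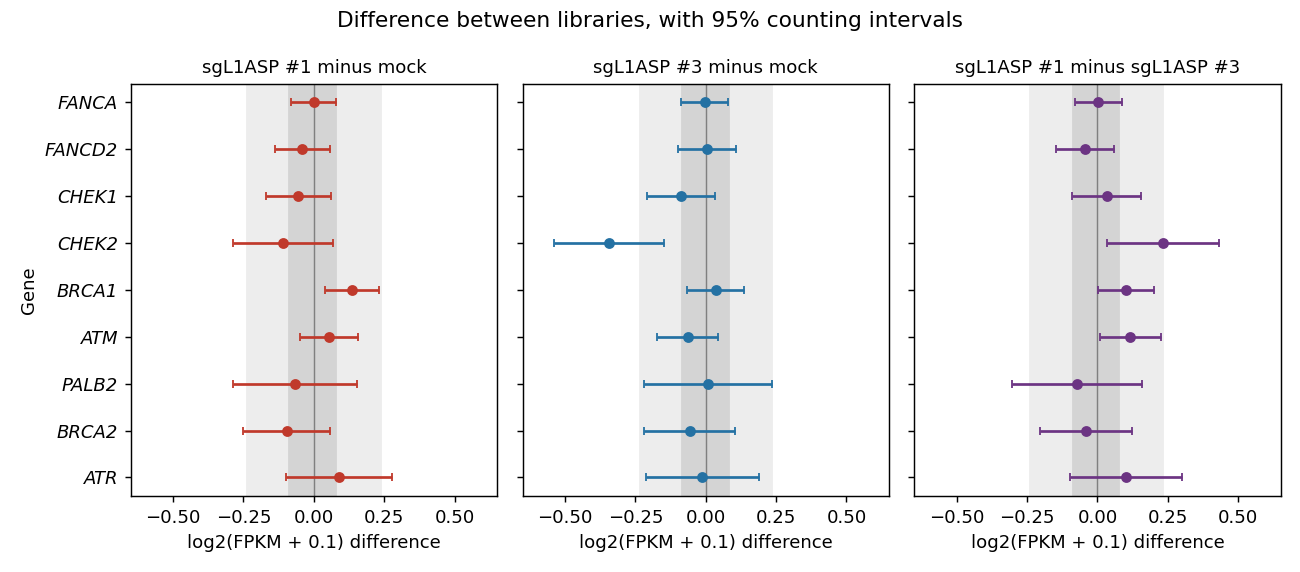
Difference in log2(FPKM + 0.1) for the 9 genes in the 3 pairs of libraries, with bars for the 95% counting interval and grey bands for the range between the quartiles and between the 5th and 95th percentiles of the 7547 genes with mean FPKM from 5 to 50. CHEK2 with sgL1ASP #3, at -0.34, is the point farthest from 0 and lies outside the wider band of its panel.

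Both guides were compared with the same mock library, so their differences from mock share its error. BRCA1 was the single gene of the 9 that was higher with both guides, a pattern seen in 33.7% of genes with mean FPKM at least 1. BRCA2, FANCA, CHEK1 and CHEK2 were lower with both, as were 33% of all genes. ATM and ATR were higher with sgL1ASP #1 and lower with sgL1ASP #3, as were 16.4% of all genes, and PALB2 and FANCD2 the opposite, as were 16.6%. The study looked for genes that rose more than 1.5-fold at each step from mock over sgL1ASP #3 to sgL1ASP #1. Without the threshold, that order was followed by BRCA1 alone, and by 16.5% of all genes. BRCA1 was at 1.02-fold of mock with sgL1ASP #3, and with sgL1ASP #1 at 1.07-fold of sgL1ASP #3. When the FPKM sums of the libraries were made equal, the median of all genes moved to -0.092 with sgL1ASP #1 and to -0.12 with sgL1ASP #3. BRCA1 was then the single gene above mock with sgL1ASP #1, and 0 of the 9 were above mock with sgL1ASP #3. With equal upper quartiles, 1 of the 9 was above mock with sgL1ASP #3.

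The median difference of the 9 genes was -0.041 with sgL1ASP #1 and -0.011 with sgL1ASP #3, beside medians over every gene with mean FPKM at least 1 of 0.0008 and 0.0015. Among these 12830 genes 50.3% were above mock with sgL1ASP #1 and 50.4% with sgL1ASP #3.

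Ratios of partner genes within a library do not depend on how the libraries were scaled. BRCA2 stood at 0.243 of BRCA1 in mock, at 0.206 with sgL1ASP #1 and at 0.228 with sgL1ASP #3, with overlapping counting intervals. The ratio of PALB2 to BRCA2 was 1.502 in mock, 1.53 with sgL1ASP #1 and 1.57 with sgL1ASP #3. The ratio of ATM to ATR was 2.18, 2.12 and 2.10 in the same order, and that of FANCD2 to FANCI, which form a ubiquitinated pair, was 0.636, 0.608 and 0.647. These intervals overlapped in all 3 libraries, although ratios whose intervals overlap can still differ by more than counting error.

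CHEK1 and CHEK2 were at a ratio of 0.990 in mock (95% counting interval 0.894 to 1.096), 1.03 with sgL1ASP #1 (0.925 to 1.14) and 1.18 with sgL1ASP #3 (1.05 to 1.34). The intervals of mock and sgL1ASP #3 overlapped. BARD1, the binding partner that stabilizes BRCA1, stood at 0.202 of BRCA1 in mock (0.178 to 0.230), at 0.146 with sgL1ASP #1 (0.126 to 0.168) and at 0.164 with sgL1ASP #3 (0.140 to 0.191). Of the 6 pairs, this was the one in which the intervals of mock and a guide, sgL1ASP #1, did not overlap. An interval for the change of a ratio between libraries was not calculated, so overlap in the other pairs does not show equal ratios. BARD1 itself had FPKM 4.75 in mock, 3.76 with sgL1ASP #1 and 3.94 with sgL1ASP #3, from about 260 reads in mock.

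Several of the 9 genes start close to a gene on the opposite strand. On chromosome 17, the main transcript of BRCA1 (gene from 41196312 to 41322262, minus strand) starts 187 bases from NBR2, a long noncoding RNA gene. NBR2 had FPKM 7.56 in mock, 5.16 with sgL1ASP #1 and 3.86 with sgL1ASP #3. Its difference from mock was -0.54 with sgL1ASP #1 and -0.95 with sgL1ASP #3, at about 130 reads in mock. The spans of the 2 genes overlap, and the authors counted reads by strand.

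Facing genes were also found at CHEK2, ATM, PALB2 and BRCA2. CHEK2 on chromosome 22 (29083731 to 29138410, minus strand) starts 219 bases from HSCB, an iron-sulfur cluster chaperone gene, which had FPKM 17.1 in mock, 18.4 with sgL1ASP #1 and 18.5 with sgL1ASP #3. HSCB was thus lowest in mock, where CHEK2 was highest. Its differences from mock were small, at 0.107 with sgL1ASP #1 and 0.112 with sgL1ASP #3. The median absolute difference over genes with mean FPKM at least 1 was 0.094 and 0.095. ATM on chromosome 11 (108093771 to 108239829, plus strand) starts 429 bases from NPAT, an activator of histone genes. NPAT had FPKM 9.53 in mock, 9.61 with sgL1ASP #1 and 9.37 with sgL1ASP #3. PALB2 on chromosome 16 (23614481 to 23652642, minus strand) starts 156 bases from DCTN5, a dynactin subunit gene, with FPKM 15.1, 13.5 and 13.6. BRCA2 on chromosome 13 (32889223 to 32974405, plus strand) starts 145 bases from ZAR1L, which was at FPKM 0.213 in mock, listed at 0 with sgL1ASP #1 and at 0.256 with sgL1ASP #3.

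Overlaps without a shared start were found at FANCA, CHEK1 and ATM. FANCA on chromosome 16 (89793091 to 89883385, minus strand) overlaps ZNF276 on the opposite strand, with FPKM 8.95 in mock, 8.19 with sgL1ASP #1 and 8.23 with sgL1ASP #3. CHEK1 on chromosome 11 (125495058 to 125546150, plus strand) overlaps the end of STT3A on the same strand, which had FPKM 145.8, 146.4 and 150.8, and ACRV1 on the opposite strand, with 1.26, 1.02 and 1.00. ATM overlaps C11orf65 on the opposite strand, with 1.38, 0.935 and 0.972. For FANCD2 (chromosome 3, 10068054 to 10143616, plus strand) and ATR (chromosome 3, 142167849 to 142297575, minus strand), no overlapping gene was found under its GENCODE name among the listed genes. Neighbours that the deposited list gives under an older name were not searched for, at any of the 9 genes.

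The other genes of the pathway were followed in 7 lists of 103 genes, all of which had a value, 101 of them with mean FPKM at least 1. With sgL1ASP #1, 52 were above and 49 below mock, and with sgL1ASP #3, 41 were above and 60 below. The 1.5-fold threshold was passed by 1 gene upward and 0 downward with sgL1ASP #1, and by 0 upward and 1 downward with sgL1ASP #3, which is 0.99% of the 101 each time beside the 3.23% and 3.48% of all genes. The list medians lay between -0.033 and 0.030 with sgL1ASP #1 and between -0.077 and -0.004 with sgL1ASP #3. The highest and lowest genes of each list, named below, were picked for their size. Those within their own counting interval are marked so.

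The list of 11 partners of BRCA1 and BRCA2 also holds NBR2, which is the noncoding neighbour of BRCA1 and not a member of its complexes. NBR2 was lowest with both guides and is the gene past the threshold with sgL1ASP #3, so that 0 of the protein-coding genes in the 7 lists passed it downward. SHFM1, which encodes a small acidic BRCA2-binding protein, was highest with sgL1ASP #1, at FPKM 306.6 against 271.1 in mock. BAP1, a deubiquitinase gene, was highest with sgL1ASP #3, at 47.4 against 44.4, a difference within its counting interval. RBBP8, which encodes the CtIP end resection protein, was at FPKM 31.1 in mock, 31.4 with sgL1ASP #1 and 30.5 with sgL1ASP #3.

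Of the strand exchange and resolution genes, 23 of 24 had mean FPKM at least 1, and 0 passed the threshold. RAD51D, which encodes a recombination mediator, was highest with both guides, at FPKM 6.90 in mock, 9.20 with sgL1ASP #1 and 9.22 with sgL1ASP #3, or 1.33-fold and 1.34-fold of mock. RMI2, a subunit of the BLM complex, was lowest with sgL1ASP #1, at 47.3 against 52.9 in mock. RAD51B was lowest with sgL1ASP #3, at 1.95 against 2.39, from about 34 reads in mock. The difference of RAD51B lay within its counting interval.

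Of the 13 genes of break sensing and resection, 0 passed the threshold. KAT5, the acetyltransferase that modifies ATM, was lowest with both guides, with FPKM 29.5 in mock, 25.04 with sgL1ASP #1 and 21.4 with sgL1ASP #3. Its difference with sgL1ASP #3 was -0.46, the largest below 0 in this list. RNF8, a ubiquitin ligase at breaks, was highest with sgL1ASP #1, at FPKM 12.6 against 10.6 in mock, and MRE11A, the nuclease that resects broken ends, with sgL1ASP #3, at 14.5 against 13.1.

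Of the 19 genes of the Fanconi core and its effectors, 18 had mean FPKM at least 1. C19orf40, which encodes the FAAP24 subunit that binds FANCM, is the gene past the threshold with sgL1ASP #1. It had FPKM 3.17 in mock, 6.01 with sgL1ASP #1 and 3.08 with sgL1ASP #3, from about 70 reads in mock. C1orf86, which encodes the FAAP20 subunit that binds FANCA, was highest with sgL1ASP #3, with FPKM 33.7 in mock, 45.4 with sgL1ASP #1 and 44.3 with sgL1ASP #3. APITD1, a histone fold partner of FANCM, was lowest with both guides, at 26.2, 22.6 and 21.5. Its differences from mock lay within their counting intervals. FANCI, the partner of FANCD2, had FPKM 51.5, 52.4 and 50.8.

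Of the 14 activators and mediators of the kinases, 0 passed the threshold. ATRIP, the partner that ATR needs for its stability, was highest with sgL1ASP #3, with FPKM 12.6 in mock, 13.3 with sgL1ASP #1 and 14.2 with sgL1ASP #3. HUS1, a subunit of the checkpoint clamp, was highest with sgL1ASP #1, at 7.93 against 6.95 in mock. TTI2, which helps fold the kinases, was lowest with sgL1ASP #1, at 6.45 against 7.48, and TIPIN, a fork protection gene, with sgL1ASP #3, at 29.4 against 33.4. The differences of ATRIP, HUS1, TTI2 and TIPIN from mock all lay within their counting intervals.

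Downstream of the checkpoint kinases, 0 of 10 genes passed the threshold. WEE1, the kinase that restrains entry into mitosis, was highest with both guides, with FPKM 18.3 in mock, 23.0 with sgL1ASP #1 and 23.7 with sgL1ASP #3, or 1.26-fold and 1.30-fold of mock. AURKA, a mitotic kinase gene, was lowest with sgL1ASP #1, at 15.9 against 17.5 in mock, and MDM4, a p53 inhibitor gene, with sgL1ASP #3, at 8.27 against 8.91. The differences of AURKA and MDM4 lay within their counting intervals.

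End joining, the other route of break repair, was followed for comparison in 12 genes, of which 0 passed the threshold against mock. XRCC4, the partner of the ligase LIG4, was highest with sgL1ASP #1 and below mock with sgL1ASP #3, with FPKM 4.33 in mock, 5.39 with sgL1ASP #1 and 3.71 with sgL1ASP #3, from about 63 reads in mock. LIG4 was lowest with sgL1ASP #1, at 2.79 against 3.58 in mock. POLQ, a polymerase of alternative end joining, was lowest with sgL1ASP #3, at 8.04 against 9.50, and PARP3 was highest there, at 5.76 against 5.08. The differences of XRCC4, LIG4 and PARP3 lay within their counting intervals.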

How the data were processed

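Total RNA from 293T cells was made into stranded mRNA libraries by the authors, 1 per condition, and sequenced in 75-base single-end mode. Per the labels and methods, the aligner was TopHat 2.0.13, run on hg19 together with Bowtie2 2.2.3 and with SAMtools 0.1.19. The deposited FPKM per gene were calculated with Cuffdiff 2.2.1 in a strand-specific mode. The annotation and the scaling between libraries are not given in the sources used here.

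FPKM were used without rescaling. Log2 differences used a pseudocount of 0.1, which understates differences of genes with low FPKM, and folds used none. The background was genes with mean FPKM at least 1. Gene spans, transcripts and start regions came from GENCODE 44 on GRCh37, whose sequence is that of hg19. Read totals were inferred as the most frequent worth of a single read among genes whose only transcript exceeds 1000 bases, less a fragment of 200 bases. The peak held 42, 62 and 50 genes in mock, sgL1ASP #1 and sgL1ASP #3. Approximate reads used the main transcript. Intervals and read numbers cover counting error only. The depth estimate and the fold count were tested on simulated data. The simulation used the same transcript lengths and fragment size as the estimate, so it does not test those assumptions.

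The 9 genes and the lists were chosen with earlier results of these data known. Genes named in the text are the 9 genes, the highest and lowest of each list per guide with FPKM at least 1 in every library, those past 1.5-fold, overlapping genes or those starting within 1 kb, and the 3 genes most like the one with the largest difference. BARD1 and FANCI belong to the partner ratios. RBBP8, FANCF, SLX1A and SLX4 were added after their values were seen. Alternatives were pseudocounts of 0.01 and 1, thresholds of 1.2-fold and 2-fold, 3 rescalings and other transcript lengths. A value was called moved beyond its counting interval, for a list beyond the median interval of its genes. Python 3.11.15, NumPy 2.4.6, pandas 2.3.3 and matplotlib 3.10.9 were used.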

Additional observations from a re-analysis of the deposited data

Results flagged for a closer look

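Of the 9 genes, 4 lay on opposite sides of mock with the 2 guides, beside 16.4% of all genes in one direction and 16.6% in the other. With the FPKM sums made equal, all 4 were below mock with both guides. That rescaling also moved the median of all genes, to -0.092 with sgL1ASP #1 and to -0.12 with sgL1ASP #3. The 4 genes stayed on opposite sides of this median with the 2 guides. The difference of sgL1ASP #1 minus sgL1ASP #3 in log2(FPKM + 0.1) was 0.117 for ATM, 0.101 for ATR, -0.074 for PALB2 and -0.046 for FANCD2. These differences between the guides were not tested, since each rests on 1 library per condition, and that of ATM alone exceeded its counting interval.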

How the results depend on the processing

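No paired analysis was possible because there is only 1 library for mock and for each guide. The number of the 9 genes past the threshold was 0 in each direction and each pair of libraries, also with pseudocounts of 0.1 and 1, with the 2-fold threshold and with the 3 rescalings. With the 1.2-fold threshold it was 1, CHEK2, lower with sgL1ASP #3, where 7.79% of all genes passed. Adding a pseudocount of 1 moved the ratio of BRCA2 to BRCA1 to 0.274 in mock, 0.236 with sgL1ASP #1 and 0.258 with sgL1ASP #3, and that of BARD1 to BRCA1 to 0.235, 0.178 and 0.197, with the same order of the libraries. By construction a pseudocount raises a ratio under 1. Rescaling to the same FPKM sum moved 5 single differences beyond their counting intervals, with BRCA1 at -0.084 with sgL1ASP #3. The fewest reads of a gene in a library were about 290 with the main transcript, 23 with the shortest coding transcript and 350 with the longest. The most reads were about 2500, and 620 with the shortest. The depth limits the smallest difference that counting error would let through, from 0.080 on the log2 scale for FANCA to 0.23 for PALB2.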

Other observations

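A pair of pathway genes had too little signal for a comparison. FANCF, a subunit of the Fanconi core complex, had FPKM 0.184 in mock, 0.373 with sgL1ASP #1 and 0.480 with sgL1ASP #3, which is about 5.9 reads in mock. SLX1A, the nuclease partner of SLX4, was listed at 0 in all 3 libraries, while SLX4 was at 4.08, 4.23 and 4.41. Whether reads of SLX1A were assigned to other genes was not tested, so its 0 need not mean that the transcript was absent.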
